A study of Mus musculus with 7 samples.

Results

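A set of 10 genes of the bone morphogenetic protein (BMP) pathway were followed by symbol in RNA-seq of mouse hindlimb tendon: the ligands Bmp2, Bmp4, Bmp6 and Bmp7, the protease Bmp1, the receptors Bmpr1a, Bmpr2 and Acvr1, and the antagonists Grem1 and Nog. These are 10 of the 42689 annotated genes to which the quantified transcripts could be assigned, and all 10 had counts in every one of the 7 libraries. Of these, 9 (all except Nog) had enough counts to be tested, among 16028 tested features.

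The tenotomy and contralateral tissues came from mice on a C57BL/6 background, 3 weeks after a dorsal burn (a block at 60 °C for 18 s over 30% of the body surface) combined with cutting of the Achilles tendon, a musculoskeletal injury model used to study bone that forms in soft tissue. The tenotomy group (2 libraries) is the cut site, and the contralateral group (3 libraries) is the intact tendon of the other hindlimb, so the contralateral tissue had also been exposed to the burn. The uninjured group (2 libraries) is hindlimb tendon of wild-type mice that received no burn and no tendon cut. Tissue was taken between the gastrocnemius insertion and the heel bone. The labels do not say whether the libraries of a group came from separate mice or from pooled tissue, so p-values measure the spread between these libraries only. All samples are whole tissue, and in a bulk sample fewer cells of a type and less RNA per cell cannot be told apart.

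BMP ligands are secreted dimers that assemble type I receptors such as BMPR1A and ACVR1 with type II receptors such as BMPR2, and the type I kinase then phosphorylates SMAD1, SMAD5 and SMAD9, which enter the nucleus with SMAD4. Noggin and gremlin bind ligands outside the cell and keep them from the receptors. BMP1, despite its name, is not a ligand of this kind but a tolloid-type metalloprotease that removes the C-propeptide of fibrillar procollagens and cleaves chordin. BMP signalling is known for its part in cartilage and bone formation, including at injured tendon, and activating changes in ACVR1 cause an inherited form of heterotopic bone.

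The total of estimated counts ran from 25927171 to 36725106 per library, of which the 5 most abundant features took 76.4% to 81.4%, leaving 4934057 to 8375626 counts for all others. The uninjured libraries stand apart from each other. Counts scaled to a common library size are given as CPM. By Euclidean distance over log2 CPM, that labelled replicate 1 was 59.6 and 61.1 away from the tenotomy libraries and at least 124.9 away from the contralateral ones, whereas uninjured replicate 2 lay 64.5 to 67.4 from the contralateral libraries, at least 121.2 from the tenotomy libraries and 114 from the other uninjured library. Whether the labels of the uninjured libraries are right was not tested, and results that use the group are given with both libraries and without each. Summed skeletal muscle markers were 25277 to 27947 CPM in the contralateral libraries, 2190 and 2206 in the tenotomy libraries, and 2795 and 18830 in the uninjured ones. Macrophage and leukocyte markers summed to 33.96 to 43.0, 149 and 153, and 152 and 43.5 CPM in the same order, and chondrocyte markers to 27.2 to 52.3, 331 and 333, and 133 and 48.3. Mesenchymal and fibroblast markers summed to 356 to 408 CPM contralaterally, 2761 in both tenotomy libraries, and 2428 and 614 in the uninjured ones, and tenocyte markers to 526 to 730, 2887 and 2902, and 2658 and 2450. Most of each tenocyte sum was Col1a1, which is not particular to tenocytes, with 373 to 478, 2566 and 2584, and 2357 and 2214 CPM in that order. Adipocyte markers summed to 362 to 467, 137 and 134, and 139 and 372 CPM in that order, and proliferation genes to 3.22 to 3.49, 15.0 and 13.8, and 12.0 and 2.82. Osteoblast and osteocyte markers summed to 7.36 to 11.2 CPM contralaterally, 4.705 and 4.67 at the tenotomy site, and 6.18 and 5.47 in the uninjured libraries. All 18 muscle markers, all 13 leukocyte markers and all 10 chondrocyte markers were detected in every library, while the osteoblast genes Sp7, Bglap and Bglap2 were at 0 in some. The markers' part in the results for the 10 genes was not tested.

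Start-site sequences in the RefSeq table (GRCm38.p6) were matched for 6 of the 10 genes, namely Bmp4, Bmp6, Bmpr1a, Bmpr2, Acvr1 and Grem1. Of these, 4 are printed, 5′ to 3′ from 250 bases before to 50 after the start, because Bmp4 and Bmp6 are the matched ligands, and Bmpr1a and Bmpr2 the matched receptors, whose tenotomy libraries all lay below the contralateral ones, although none of these 4 passed the threshold in the test of all 7 libraries. The start is that of the RefSeq table. The printed windows of Bmp6, Bmpr1a and Bmpr2 lie inside the gene spans given below, downstream of the outermost annotated start. Capitals mark GGCGCC, a GC-rich box of the kind bound by SMAD1 and SMAD5, which reads the same on both strands.
Bmp4 (chr14:46390620-46390919, minus strand): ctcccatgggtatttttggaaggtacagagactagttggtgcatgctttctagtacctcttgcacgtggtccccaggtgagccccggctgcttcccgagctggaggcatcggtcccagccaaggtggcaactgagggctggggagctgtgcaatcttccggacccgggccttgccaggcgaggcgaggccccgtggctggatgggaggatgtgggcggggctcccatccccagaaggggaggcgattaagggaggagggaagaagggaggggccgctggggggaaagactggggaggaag
Bmp6 (chr13:38345466-38345765, plus strand): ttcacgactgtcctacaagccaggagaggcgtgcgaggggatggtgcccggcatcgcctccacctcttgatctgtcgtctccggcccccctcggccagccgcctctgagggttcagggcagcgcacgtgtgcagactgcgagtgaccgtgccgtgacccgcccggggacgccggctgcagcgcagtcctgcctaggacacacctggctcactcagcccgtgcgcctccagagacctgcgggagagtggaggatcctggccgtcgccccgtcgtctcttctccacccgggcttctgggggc
Bmpr1a (chr14:34502497-34502796, minus strand): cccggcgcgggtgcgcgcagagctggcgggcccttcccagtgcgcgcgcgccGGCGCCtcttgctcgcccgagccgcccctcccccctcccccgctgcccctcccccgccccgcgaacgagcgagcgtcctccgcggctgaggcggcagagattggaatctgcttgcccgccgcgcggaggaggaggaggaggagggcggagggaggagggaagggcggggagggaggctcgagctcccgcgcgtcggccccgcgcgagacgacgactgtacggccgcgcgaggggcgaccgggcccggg
Bmpr2 (chr1:59764029-59764328, plus strand): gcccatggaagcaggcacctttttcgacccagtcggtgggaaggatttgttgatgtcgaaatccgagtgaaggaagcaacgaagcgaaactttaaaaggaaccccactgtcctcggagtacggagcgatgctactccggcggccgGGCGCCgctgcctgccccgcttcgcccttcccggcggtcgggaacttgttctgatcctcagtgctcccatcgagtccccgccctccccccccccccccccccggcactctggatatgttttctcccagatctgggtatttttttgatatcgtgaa
The box occurs once each in Bmpr1a and Bmpr2, and also once in Grem1, and not in the Bmp4, Bmp6 or Acvr1 window. Among all 32851 windows of the same length in the table, 11.9% hold it. No window of the 6 holds TATAAA on either strand, against 13.6% of all windows. GC content was 64.0% for Bmp4, 69.3% for Bmp6, 79.3% for Bmpr1a and 59.3% for Bmpr2, above the median of 52.7% over all windows.

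TPM values, which correct for transcript length, allow levels to be compared between genes, but they depend on the estimated split between transcripts. Short transcripts weigh heavily. The 517-base retained-intron Bmp4-203 held 10.8%, 40.8% and 65.8% of Bmp4 TPM in the contralateral libraries. The 869-base Bmpr1a-203 held 21.5%, 34.5% and 32.3% of Bmpr1a TPM there. The 612-base Acvr1-205 held 26.5%, 28.7% and 27.5% of Acvr1 TPM there. The places of Bmp4, Bmpr1a and Acvr1 in the order are uncertain to that extent. In the contralateral libraries the receptors Bmpr1a and Bmpr2 were highest, with mean levels of 0.567 and 0.536 TPM, followed by Bmp1 at 0.228, Acvr1 at 0.216, Bmp4 at 0.141, Bmp6 at 0.0824, Bmp2 at 0.0523, Bmp7 at 0.0466, Nog at 0.0244 and Grem1 at 0.0121. Of the 9 neighbouring pairs in that order, only Bmpr2 and Bmp1 had library ranges that did not overlap. At the tenotomy site Bmp1 was the highest of the 10 genes at 0.807 TPM, and Bmpr1a (0.432), Bmpr2 (0.405) and Acvr1 (0.227) followed. The ligands came next in the tenotomy libraries, Bmp4 at 0.0569, Bmp6 at 0.0397, Bmp7 at 0.0287 and Bmp2 at 0.0135 TPM, with Grem1 at 0.00686 and Nog at 0.00287 last, and only Bmp2 and Grem1 overlapped among neighbours. In the uninjured libraries Bmp1 (0.591 TPM) and Bmpr1a (0.561) led by mean, but Bmp1 spanned 0.321 to 0.861 between the 2 libraries.

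**Figure D1:**
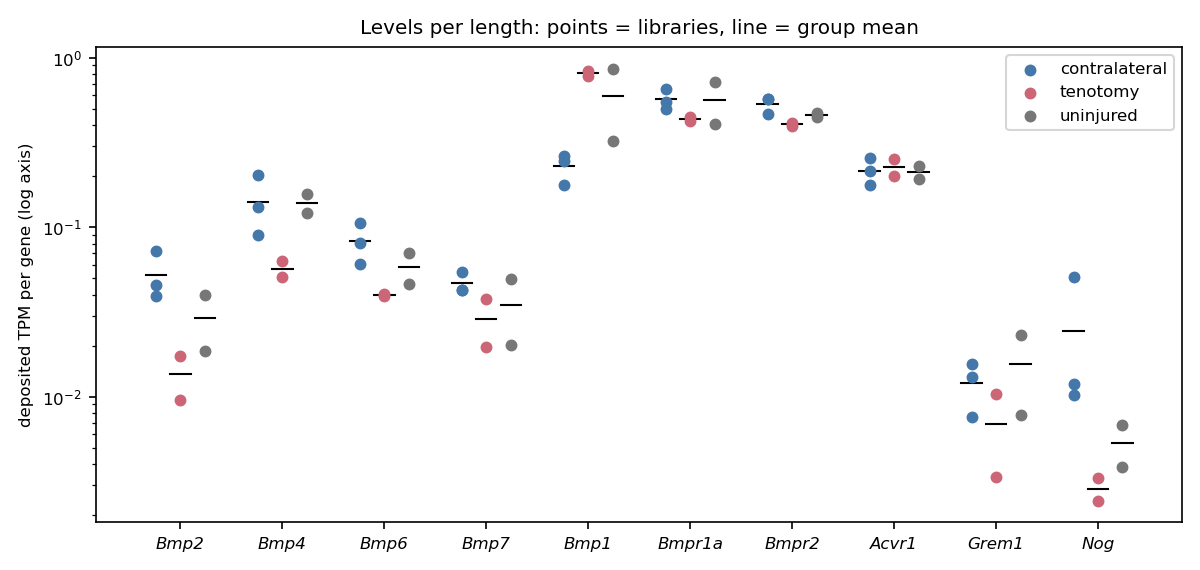
Deposited TPM summed per gene on a log axis, for the 10 genes, with a point per library coloured by group and a line at the group mean. Bmp1 moves from 0.228 TPM in the contralateral mean to 0.807 in the tenotomy mean, above both main receptors, and the ligands' group means lie below the receptors' in all 3 groups.

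The central comparison sets the cut site, 3 weeks after injury, against intact contralateral tendon, tissues that also differ in the summed markers given above. Bmp1 was 3.66-fold higher and Bmp2 was 3.77-fold lower at the tenotomy site than in contralateral tendon. In edgeR's quasi-likelihood test of all 7 libraries, with Benjamini-Hochberg adjustment over all 16028 features, those were the 2 of 9 tested genes past an adjusted p of 0.05, where 29.0% of all features were called (13.6% higher and 15.4% lower). The median log2 difference of the 9 genes was -0.63 against -0.00 for all features. The count of 2 is therefore close to the share of the whole transcriptome, and the genes are described one by one. Both calls depend on the fit: leaving out any 1 of the 5 tenotomy or contralateral libraries from the 7-library fit left 0 of the tested genes called, and also 0 of all features. A fit of only these 5 libraries called 7 of 9 genes, 2 higher and 5 lower, against 46.1% of all features (22.1% higher and 24.1% lower). When 1 of those 5 libraries was left out of that fit, an alternative chosen after seeing the data, Bmp1 and Bmp2 were called in 5 of 5 fits, Bmpr1a and Bmpr2 in 3, Bmp6 in 2, Bmp4 in 1 and Acvr1 in 0. Their highest adjusted p-values by edgeR were 3.69e-06 for Bmp1, 0.0174 for Bmp2, 0.218 for Bmpr1a, 0.0649 for Bmpr2, 0.0704 for Bmp6, 0.221 for Bmp4 and 0.200 for Acvr1. A 7-library fit less 1 uninjured library takes its spread from the tenotomy and contralateral libraries, because the lone uninjured one has none. Without uninjured replicate 1 it called 7 of 10 genes (42.9% of features), and without uninjured replicate 2 it called 8 of 10 (43.5%).

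Among the ligands, Bmp2 (ENSMUSG00000027358.6, chromosome 2, 133552159 to 133562885, plus strand; all coordinates are GRCm38), an inducer of cartilage and bone, had 1.57, 0.996 and 1.08 CPM in the contralateral libraries, 0.245 and 0.400 at the tenotomy site, and 0.395 and 0.929 in the uninjured libraries. Both tenotomy libraries lay below all 3 contralateral ones, and the libraries rest on 35 to 42 counts in the contralateral group against 9 and 12 at the cut site. Its log2 difference was -1.91 (SE 0.44), with an edgeR adjusted p of 0.0203. The adjusted p was 0.00073 in the fit of only the 5 libraries, and over all alternatives it ran from 0.0007 to 0.150.

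Bmp6 (ENSMUSG00000039004.6, chromosome 13, 38345107 to 38500302, plus strand), which in liver is known as the ligand that controls hepcidin, had 0.862, 1.51 and 1.45 CPM contralaterally and 0.653 and 0.600 at the tenotomy site. The groups did not overlap, contralateral replicate 1 being the nearest to the tenotomy libraries. The log2 difference of -1.03 (SE 0.33) had an edgeR adjusted p of 0.0534 in the 7-library fit and 0.00996 in the fit of the 5 libraries.

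Bmp4 (ENSMUSG00000021835.15, chromosome 14, 46383520 to 46390669, minus strand), a ligand of limb and skeletal patterning, had 0.899, 0.996 and 1.30 CPM contralaterally and 0.707 and 0.600 at the tenotomy site. The tenotomy libraries were again the lowest, with no overlap. Its log2 difference was -0.70 (SE 0.25, edgeR adjusted p = 0.0731), and 0.0464 was the adjusted p with the 5 libraries alone. Part of the Bmp4 counts came from a retained-intron transcript, whose share was 1.87%, 9.44% and 22.5% contralaterally and 4.89% and 0% at the tenotomy site. The log2 difference was -1.32 with length-scaled values (edgeR adjusted p = 0.0890) and -0.56 with protein-coding transcripts only (edgeR adjusted p = 0.121).

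Bmp7 (ENSMUSG00000008999.7, chromosome 2, 172868012 to 172940321, minus strand), a ligand used clinically in bone repair, had 1.05, 0.968 and 1.24 CPM contralaterally and 0.517 and 0.900 at the tenotomy site. Tenotomy replicate 2 lay close to the lowest contralateral library. The log2 difference of -0.63 (SE 0.43) had an adjusted p of 0.298 by edgeR.

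Bmp1 (ENSMUSG00000022098.10, chromosome 14, 70474558 to 70520234, minus strand) had 6.07, 5.66 and 5.23 CPM contralaterally, 21.3 and 20.2 at the tenotomy site, and 19.5 and 7.95 in the uninjured libraries. The tenotomy values were more than 3 times any contralateral one, resting on 782 and 605 counts against 162, 199 and 169, all from a single transcript. The log2 difference was 1.87 (SE 0.33, edgeR adjusted p = 0.0167). Without 1 contralateral or tenotomy library the 7-library fit gave adjusted p-values from 0.0501 to 0.124, and the fit of the 5 libraries gave 3.39e-08.

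Of the receptors, Bmpr2 (ENSMUSG00000067336.6, chromosome 1, 59763400 to 59879014, plus strand), the type II receptor shared by BMP ligands, had 40.2, 40.9 and 43.3 CPM contralaterally, 31.3 and 31.3 at the tenotomy site and 29.7 and 33.1 in the uninjured libraries. The contralateral libraries were above the other 4. Its log2 difference was -0.41 (SE 0.16), with an edgeR adjusted p of 0.0891 in the 7-library fit and 0.00259 in the fit of the 5 libraries. Bmpr1a (ENSMUSG00000021796.15, chromosome 14, 34410734 to 34503341, minus strand), a type I receptor for BMP2 and BMP4, had 14.5, 14.0 and 14.4 CPM contralaterally and 12.0 and 11.4 at the tenotomy site, without overlap. Its log2 difference of -0.29 (SE 0.17) had an edgeR adjusted p of 0.236, and 0.0210 with the 5 libraries alone.

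Acvr1 (ENSMUSG00000026836.15, chromosome 2, 58388644 to 58567157, minus strand), the type I receptor also called ALK2, went the other way, with 3.04, 3.27 and 3.15 CPM contralaterally and 3.92 and 4.23 at the tenotomy site. Both tenotomy libraries were above every contralateral one. The log2 difference of 0.37 (SE 0.14) had an edgeR adjusted p of 0.0881, and 0.0354 with the 5 libraries alone. Kallisto spread the Acvr1 counts over 6 transcripts in proportions that varied within groups: transcript Acvr1-203 held 0.420%, 58.1% and 0.0284% contralaterally and 57.3% and 55.8% at the tenotomy site. By TPM, the 612-base Acvr1-205 held 26.5%, 28.7% and 27.5% contralaterally and 1.22% and 11.3% at the tenotomy site. With length-scaled values the difference was 0.12, and the part of either transcript in that was not tested.

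The antagonists were the least abundant. Grem1 (ENSMUSG00000074934.3, chromosome 2, 113746164 to 113758646, minus strand) had 11, 12 and 8 counts contralaterally and 4 and 8 at the tenotomy site, or 0.412, 0.341 and 0.247 CPM against 0.109 and 0.267. The groups overlapped, and the log2 difference of -0.85 (SE 0.67) had an edgeR adjusted p of 0.375. Nog (ENSMUSG00000048616.4, chromosome 11, 89300638 to 89302332, minus strand) had 3, 17 and 4 counts contralaterally and 1 and 1 at the tenotomy site, 1 and 2 in the uninjured libraries. Most of its contralateral counts lie in replicate 2, and the exact Poisson 95% interval for 1 count runs from 0.0253 to 5.57 (counting error only). Nog did not pass the count filter with all 7 libraries. Without the filter its log2 difference was -2.90 (SE 1.00), with an edgeR adjusted p of 0.0572. It passed the filter when an uninjured library was left out (edgeR adjusted p 0.0465 and 0.0462) or when a tenotomy library was (0.288 and 0.235).

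**Figure D2:**
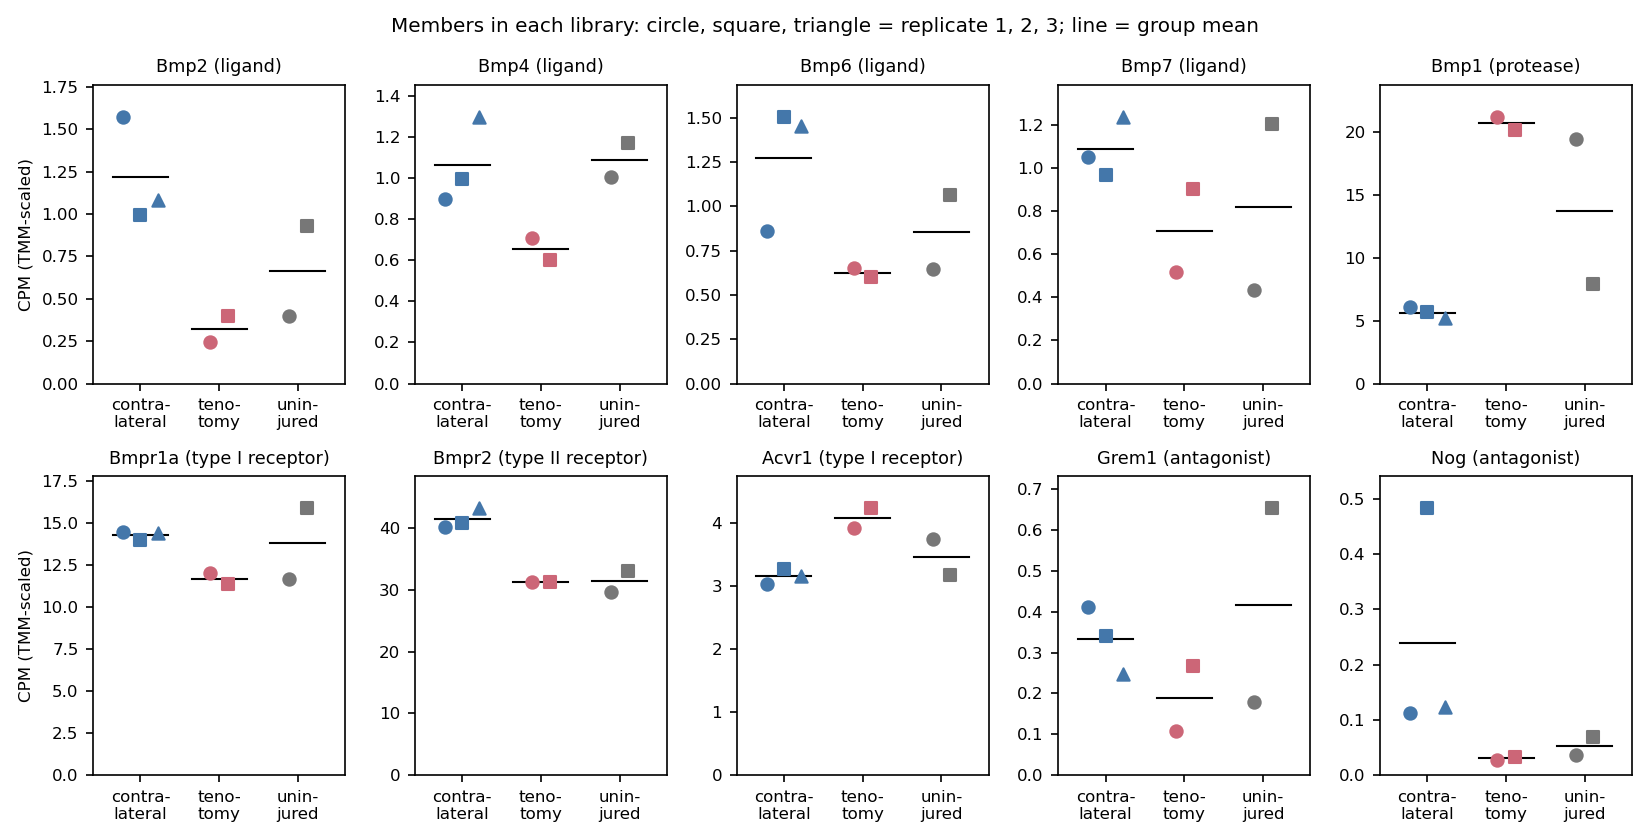
TMM-scaled CPM of the 10 genes in each library, on axes that start at 0 and differ between panels, with circle, square and triangle for replicates 1, 2 and 3 and a line at the group mean. Bmp1 is high at the tenotomy site and in the library labelled uninjured replicate 1, while the lowest library of Bmp2, of Bmp4 and of Bmp6 is a tenotomy library.

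Across the 10 genes, 9 had libraries of the 2 groups that did not overlap, 2 higher (Bmp1 and Acvr1) and 7 lower (Bmp2, Bmp4, Bmp6, Bmp7, Bmpr1a, Bmpr2 and Nog). Over all features tested, 63.7% did not overlap (31.9% higher and 31.8% lower), and 8 of the 9 tested genes did not. The sample titles carry 3 running-number series, which the labels do not call a batch: all contralateral libraries and tenotomy replicate 1 share a series, tenotomy replicate 2 and uninjured replicate 1 share another, and uninjured replicate 2 has its own. With the series as a term, which leaves this comparison to tenotomy replicate 1, assumed to vary like the other libraries, Bmp1 differed by 1.91 (SE 0.14), Bmp2 by -2.28 (SE 0.47) and Bmp7 by -1.06 (SE 0.36) on the log2 scale. These 3 of 9 genes passed the threshold in that fit, where 34.8% of all features did (16.6% higher and 18.2% lower).

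**Figure D3:**
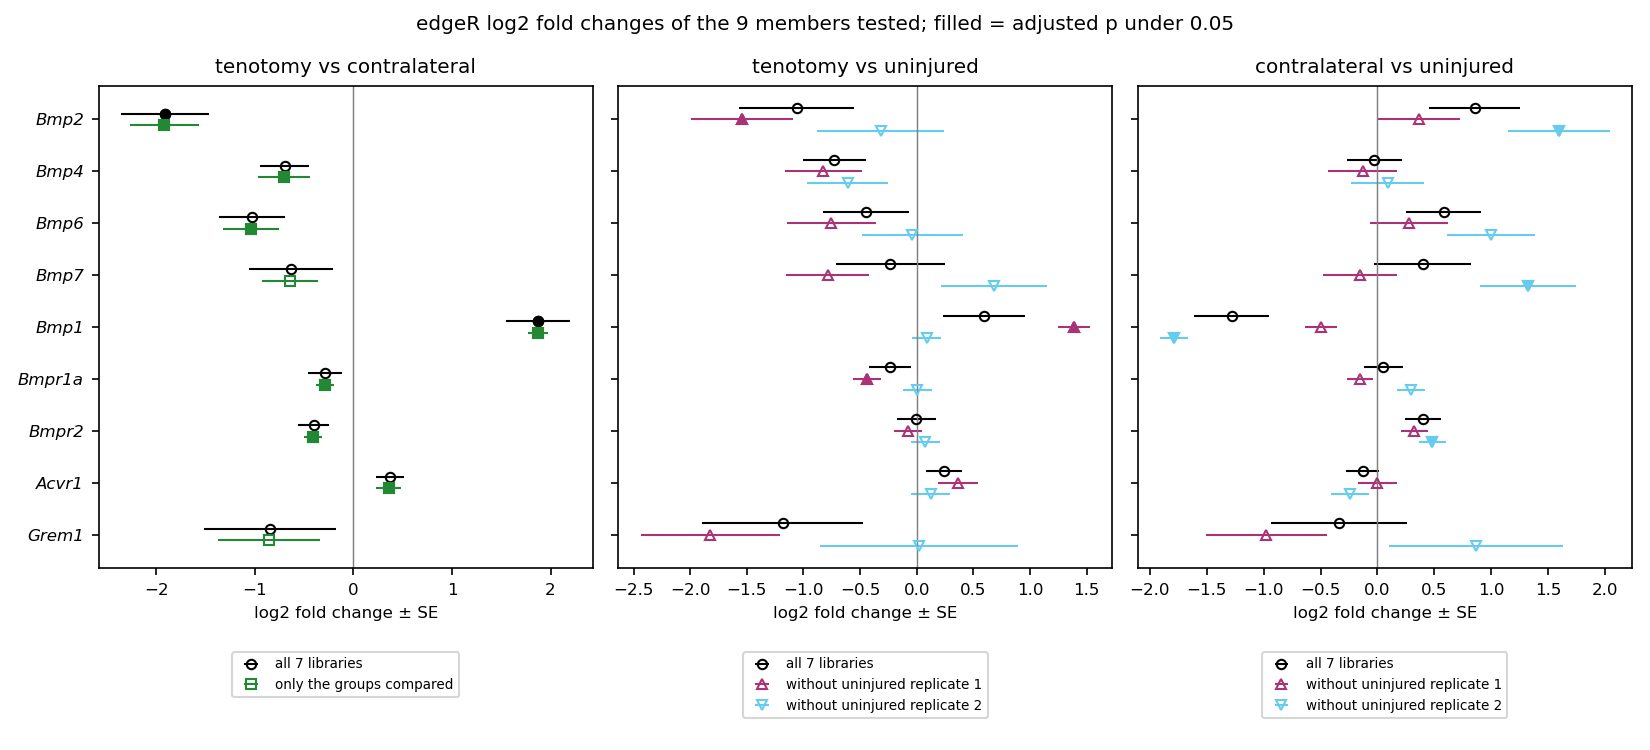
edgeR log2 fold changes with standard errors of the 9 tested genes in the 3 comparisons, filled where the adjusted p was under 0.05. At the tenotomy site against contralateral tendon Bmp1 (1.87) and Bmp2 (-1.91) are filled with all 7 libraries. In the 2 right panels, leaving out uninjured replicate 1 moves Bmp1 up, to 1.39 and -0.50. Leaving out replicate 2 moves it down, to 0.09 and -1.79. Those fits keep a lone uninjured library, so their standard errors and fills hold no spread of that group.

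Tenotomy against uninjured tendon compares the cut site with tissue from mice without either injury. With both uninjured libraries, edgeR called 0 of 9 genes and 0% of the 16028 features at an adjusted p of 0.05, with 1 gene (Bmp4, log2 difference -0.73, SE 0.28) and 1741 features under an unadjusted p of 0.05. DESeq2 called 145 features, and 0 of the 3 genes to which it gave an adjusted p (Bmp1, Bmpr1a and Bmpr2). Bmp1 differed by 0.59 (SE 0.36), Bmp2 by -1.06 (SE 0.51), Bmp6 by -0.45 (SE 0.38), Bmp7 by -0.23 (SE 0.48), Bmpr1a by -0.24 (SE 0.19), Bmpr2 by -0.01 (SE 0.17), Acvr1 by 0.24 (SE 0.16) and Grem1 by -1.18 (SE 0.71). Without the library labelled uninjured replicate 1, Bmp1 was higher by 1.39 (SE 0.14), Bmp2 lower by 1.54 (SE 0.45) and Bmpr1a lower by 0.44 (SE 0.12) on the log2 scale; these 3 of 10 genes were called, where 25.1% of features were (11.4% higher and 13.7% lower). Without uninjured replicate 2, 0 of 10 were called against 0.0830% of features, and Bmp1 differed by 0.09 (SE 0.13). In that fit Bmp7, Bmpr1a, Bmpr2 and Grem1 took the opposite sign. Each fit without an uninjured replicate keeps a lone uninjured library, so its standard errors and calls hold no spread of that group. Bmp1 had 19.5 CPM in uninjured replicate 1 and 7.95 in replicate 2. Whether the calls would hold with that spread was not tested, and only the log2 differences are to be read.

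Contralateral against uninjured tendon compares 2 intact tissues, one from mice that had a distant burn and tenotomy. edgeR called 0 of 9 genes and 0% of features, with 2 genes, Bmp1 and Bmpr2, and 3084 features under an unadjusted p of 0.05. Bmp1 differed by -1.28 (SE 0.33), with an edgeR adjusted p of 0.215, and DESeq2 called it (adjusted p = 0.0342) among 223 features, 1 of the 4 genes to which it gave an adjusted p. Bmp2 differed by 0.85 (SE 0.40), Bmp6 by 0.58 (SE 0.33), Bmp7 by 0.40 (SE 0.43), Bmpr2 by 0.40 (SE 0.16), Bmpr1a by 0.05 (SE 0.17), Bmp4 by -0.03 (SE 0.24), Acvr1 by -0.13 (SE 0.15) and Grem1 by -0.34 (SE 0.60). Without uninjured replicate 1, 0 of 10 genes were called against 0.617% of features, and Bmp1 differed by -0.50 (SE 0.14). Without uninjured replicate 2, 4 of 10 were called against 32.0% of features (16.9% higher and 15.0% lower), Bmp1 by -1.79 (SE 0.12), Bmp2 by 1.59 (SE 0.45), Bmp7 by 1.32 (SE 0.42) and Bmpr2 by 0.48 (SE 0.12). Here too, a fit without an uninjured replicate keeps a lone uninjured library. Its standard errors and calls hold no spread of that group, and only the log2 differences are to be read. The comparisons with the uninjured group share its 2 libraries.

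The uninjured libraries went different ways gene by gene. In replicate 1 and replicate 2, in that order, Bmp4 had 1.01 and 1.17 CPM, Bmp6 0.647 and 1.07 and Bmp7 0.431 and 1.20. Bmpr1a had 11.7 and 15.9, Acvr1 3.74 and 3.17 and Grem1 0.180 and 0.654 CPM. The library labelled uninjured replicate 1 was nearer the tenotomy mean for 8 of the 9 tested genes, Bmp4 being the exception, against 74.43% of all features. Uninjured replicate 2 was nearer the tenotomy mean for 1 of the 9, Bmpr2, against 30.01% of all features. Library ranges did not overlap for 3 of the 9 tested genes between tenotomy and uninjured (40.5% of tested features) and for 3 of 9 between contralateral and uninjured (35.5%).

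The rest of the pathway was read at the tenotomy site against contralateral tendon from lists of other genes, with the call rule and the shares of all features given above (13.6% higher and 15.4% lower). These calls too were lost when any 1 of the 5 tenotomy or contralateral libraries was left out of the 7-library fit, which then called 0 features. Of 7 tested among 15 other ligand genes (BMPs, GDFs and the activin subunit genes Inhba and Inhbb), 1 rose and 1 fell, and the one that rose is not a BMP or GDF. Inhba, which encodes the activin A subunit, had 0.937, 0.683 and 0.742 CPM contralaterally and 2.77 and 2.90 at the tenotomy site, a log2 difference of 1.86 (SE 0.31, edgeR adjusted p = 0.0167), and Bmp5, a BMP7-like ligand, differed by -0.83 (adjusted p = 0.0344). Of 12 tested receptors and co-receptors, 0 rose and 1 fell: Hjv, the BMP co-receptor hemojuvelin (Hfe2 in the annotation), which is abundant in skeletal muscle, had 21.8, 25.8 and 26.1 CPM contralaterally and 2.04 and 2.90 at the tenotomy site, where the muscle markers were also low.

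Of 13 tested among 17 secreted antagonists and modulators of the ligands, 7 rose and 1 fell at the tenotomy site, with a median log2 difference of 0.69 against -0.00 for all features. Fstl1, a secreted follistatin-like glycoprotein, rose from 26.4, 31.6 and 24.6 CPM to 155 and 156 (log2 difference 2.50, SE 0.49). Htra1, a secreted serine protease, differed by 1.51 (SE 0.19), and Sostdc1, a BMP and Wnt antagonist, by 1.46 (SE 0.27), both with an edgeR adjusted p of 0.0167. Nbl1, Fstl3, Chrd and Twsg1, named after their values were seen, also rose, whereas Crim1, a membrane protein that binds BMPs, fell by 1.10.

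Among the tolloid proteases and propeptide-processing genes, 3 of 6 tested rose and 1 fell, with a median of 0.86. Pcsk5, a proprotein convertase, differed by 1.61 (SE 0.31), Pcolce, the procollagen C-proteinase enhancer, by 1.56 (SE 0.26), and the tolloid-like protease Tll1 by 1.25 (SE 0.35), while the convertase Pcsk6 fell by 0.88 on the log2 scale. Tll1 and Bmp1 are proteases of the same family, and Pcolce is the enhancer of BMP1.

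Of 8 tested SMAD transducers and inhibitors, a list that includes the ubiquitin ligases Smurf1 and Smurf2, 1 rose and 1 fell. Smad1 differed by 0.87 (SE 0.16, edgeR adjusted p = 0.0167) and Smad9 by -1.69 (SE 0.46, adjusted p = 0.0307), and Smad5 by 0.32 (SE 0.13, adjusted p = 0.0940). Among the 8 tested of 10 BMP-induced target genes, 0 rose and 1, the transcription factor Atoh8, fell by 1.24. The immediate targets Id1, Id2 and Id3 gave -0.56 (SE 0.33), 0.43 (SE 0.26) and 0.13 (SE 0.13), none past the threshold. Of the 54 tested genes in these 6 lists, edgeR with all 7 libraries called 0 in either comparison with the uninjured group, where 0% of features were called. Under an unadjusted p of 0.05 were 8 (tenotomy) and 12 (contralateral), to be read beside the feature counts under that p given above. DESeq2 called 1 and 2, where it called 145 and 223 of all 16028 features. It gave no adjusted p to some genes, such as Tll1 in both comparisons, so fewer than 54 genes and 16028 features could be called. Leaving out an uninjured library leaves a lone library in that group, so for these lists only log2 differences are given from those fits. For tenotomy against uninjured, Pcolce differed by 1.13 without the library labelled uninjured replicate 1 and by 0.23 without replicate 2. Tll1 differed by 1.15 and -0.24 in the same order.

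**Figure D4:**
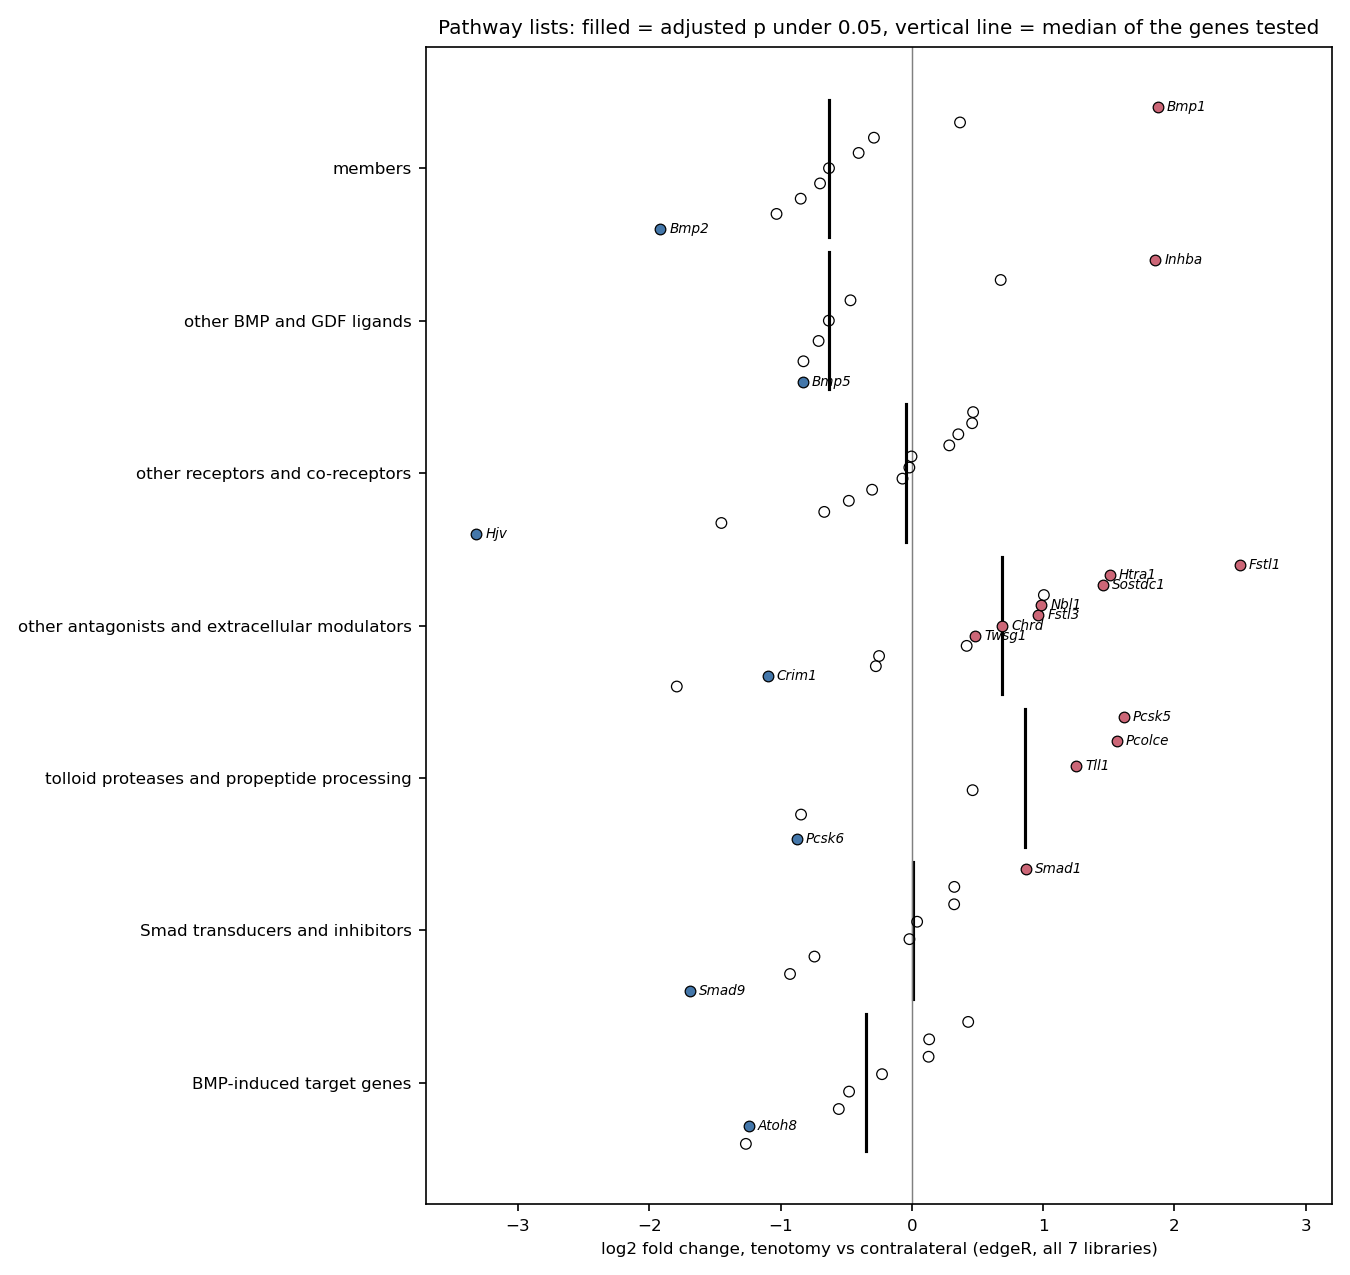
edgeR log2 fold changes, tenotomy against contralateral, for the 9 tested genes of the set and the 6 other pathway lists, filled where the adjusted p was under 0.05, with a bar at each list's median. The bar of the antagonist list stands at 0.69 and that of the tolloid and processing list at 0.86, while that of the set stands at -0.63.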

How the data were processed

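The deposited tables hold estimated counts and TPM per transcript, made by the authors with kallisto after FastQC 0.11.4, per the submitters' processing notes. Those notes name the human build GRCh38, although the deposited tables hold mouse Ensembl transcript identifiers; the index used is not given in the sources used here. The 103639 transcripts were matched without version to GENCODE M21 (GRCm38). A total of 101510 matched, 57625 of them at the same version, and 2129 did not. Estimated counts were summed per gene and rounded; deposited TPM were summed per gene. Strand of counting is not given, so counts of Bmp4, Bmp6, Bmpr1a, Bmpr2 and Acvr1, which have overlapping annotated genes, are uncertain to that extent.

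Features passing edgeR's filterByExpr (minimum count 10) were fitted with TMM scaling in edgeR 4.0.16 (R 4.3.3), 3 group means over all 7 libraries and 4 residual degrees of freedom, with Benjamini-Hochberg adjustment over all 16028. log2 CPM used a prior count of 2. SE is the log2 difference divided by the root of F. DESeq2 1.42.0 and limma 3.58.1 were alternatives. Tested on simulated data of 16028 features with 200 changed by 2 on the log2 scale, edgeR called 149 of them for tenotomy against contralateral and 16 others. There all libraries of a group shared the same mean, so the simulation does not cover the split between the uninjured libraries. The 10 genes and the pathway and marker lists were chosen with earlier results of these data known. Named genes of the other lists are those past the threshold without overlap (up to 3 rises and 3 falls per list), plus Smad1, Smad5, Smad9, Id1, Id2 and Id3. Outside that rule, Nbl1, Fstl3, Chrd and Twsg1 were named after their values were seen.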

Additional observations from a re-analysis of the deposited data

How the results depend on the processing

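No paired analysis was possible because GEO's labels give no replicate numbers: the numbers used here only name the libraries, in accession order. For tenotomy against contralateral, 166 of the values of the 9 tested genes over the alternatives kept their direction and side of the threshold, 11 lost the call, 27 gained one and 0 changed sign. The number of the 10 genes called, 2, became 1 with a stricter count filter (which drops Bmp2 and Grem1 from the test), 7 with only the groups compared and 1 in a test against a 1.5-fold change; leaving out 1 library gave 0 to 8, and in the fit of only the 5 libraries, chosen after seeing the data, 2 to 6. The count over all features, 4643, became 7385 with only the groups compared and 1565 against a 1.5-fold change, and ran from 0 to 7336 with 1 library left out of all 7 and from 5245 to 7618 with 1 left out of the 5. Upper quartile scaling moved the median of all features to 0.11 and the split of calls to 2633 higher and 2163 lower, from 2178 and 2465. For tenotomy against uninjured, the count of the 10 genes, 0, ran from 0 to 3 with 1 library left out, and the count over all features was 145 with DESeq2, 15 with no filter, 4 with the title series as a term and 0 to 4275 with 1 library left out. For contralateral against uninjured, the count of the 10 genes was 1 with DESeq2, 1 with no filter, 2 with the title series as a term and 0 to 4 with 1 library left out, and over all features 223, 337, 2466 and 0 to 5393. The cause was not tested. In both comparisons with the uninjured group, the highest counts with 1 library left out came from fits with a lone uninjured library. Those fits hold no spread of that group.

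Single log2 differences that changed sign, none of them past the threshold, were all in comparisons with the uninjured group. For tenotomy against uninjured the settings and values were with the title series as a term (Bmp2 0.017, Bmp7 1.05, Bmpr2 0.073, Grem1 0.56, Tll1 -0.27, Atoh8 0.15, Id1 0.33, Id2 -0.27, Id3 -0.011), relative log expression scaling (Bmpr2 0.0056), upper quartile scaling (Bmpr2 0.030), DESeq2 (Bmpr2 0.0055), stricter filter on low counts (Bmpr2 0.0042), protein-coding transcripts only (Id3 -0.033). With 1 library left out, the ranges that crossed 0 were Bmp7 -0.79 to 0.69, Bmpr1a -0.44 to 0.0054, Bmpr2 -0.076 to 0.077, Grem1 -1.91 to 0.020, Tll1 -0.24 to 1.15, Atoh8 -0.58 to 0.12, Id1 -0.89 to 0.39, Id2 -0.15 to 0.55. For contralateral against uninjured the settings and values were length-scaled TPM (Bmp4 0.18, Acvr1 0.11, Bmp5 -0.11, Id3 0.044), upper quartile scaling (Bmpr1a -0.021), with the title series as a term (Grem1 2.13). With 1 library left out, the ranges that crossed 0 were Bmp4 -0.20 to 0.090, Bmp7 -0.15 to 1.32, Bmpr1a -0.15 to 0.29, Grem1 -0.98 to 0.87, Inhba -0.95 to 0.25, Pcsk6 -0.021 to 0.54, Id1 -0.34 to 0.94, Id2 -0.59 to 0.11. Low counts limit Grem1 and Nog, at most 19 and 17 counts in a library.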

Other observations

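A set of 9 collagen and matrix genes around the BMP1 protease were looked at after their values were seen, and their levels are given without a test. In uninjured replicate 2, Col1a1 and Col1a2, the chains of type I collagen, had 2214 and 1489 CPM, near the tenotomy levels of 2566 and 2584 for Col1a1 and 1852 and 1852 for Col1a2 and above the contralateral means of 439 and 408. In that library Col3a1 had 384 CPM against tenotomy values of 2011 and 1999 and a contralateral mean of 192. Col5a1 had 42.5 CPM there against 229.97 and 229.27 at the tenotomy site and a contralateral mean of 29.8. Bgn, the proteoglycan biglycan, had 44.3 CPM against 225 and 240.3 at the tenotomy site and a contralateral mean of 36.9. Bmp1 itself had 7.95 CPM, Pcolce 14.7 and Tll1 1.27 there, against contralateral means of 5.65, 10.8 and 1.19. The library labelled uninjured replicate 1 had 2357 CPM of Col1a1, 1808 of Col3a1, 197 of Col5a1 and 203 of Bgn. Lox, the enzyme lysyl oxidase that crosslinks collagen, had 35.9 CPM in uninjured replicate 2 and 56.5 in replicate 1, against 66.1 and 65.8 at the tenotomy site and a contralateral mean of 18.9.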
